A study of Mus musculus with 12 samples.

Results

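Lysozyme and the proteins stored in the granules of neutrophils were measured through 10 genes, Lyz1, Lyz2, Ltf, Camp, Ngp, Lcn2, S100a8, S100a9, Mpo and Elane, chosen by name from the 38887 genes of the tables. All 10 were found. The RNA-Seq libraries came from BMMs (bone marrow-derived macrophages) of 3- to 4-month-old mice, 3 WT and 3 IGF2BP2 KO animals, each of which gave 1 untreated library (M0) and 1 library that had received IL-4 (20 ng/ml, 8 h) and is named M2, so that n = 3 mice in each of the 4 groups. All cells were grown for 6 days in 50 ng/ml M-CSF, from marrow cells that had not attached during a first night in culture. The KO mice carried loxP sites around exons 4 and 5 of Igf2bp2 together with Cre recombinase inserted into the Lyz2 gene. The WT littermates had no floxed allele. Controls of the study had Cre or lacked it, and the labels do not say whether any of these WT animals carried it.

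Lysozyme is a secreted enzyme that cuts the peptidoglycan of bacterial cell walls. The mouse has a pair of adjacent genes for it, Lyz2, which is the form of macrophages and neutrophils, and Lyz1, which is the form of the Paneth cells of the gut. Neutrophils load their granules in the order in which the genes are switched on during maturation in the bone marrow. Mpo and Elane are made first for the azurophil granules, Ltf, Camp, Ngp and Lcn2 follow for the specific granules, and S100a8 and S100a9 form the cytosolic complex calprotectin. For brevity, S100a8 and S100a9 are counted among the granule genes below, although their proteins are not stored in granules. Lysozyme is shared with macrophages, and of the others S100a8, S100a9 and Lcn2 can also be induced in macrophages by inflammatory stimuli.

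Lyz2 (ENSMUSG00000069516) lies at chr10:117277331-117282321 and Lyz1 (ENSMUSG00000069515) at chr10:117287797-117292868 (GRCm38, GENCODE M21), both on the minus strand, both protein coding with 4 exons, and 5475 bases apart. The coding sequences of both genes are 447 bases long and were the same at 425 positions (95.1%). They are shown because reads of 75 nt can come from either gene. The first 150 coding bases follow, from the GENCODE transcripts, with the 14 bases that differ in capitals.
Lyz1: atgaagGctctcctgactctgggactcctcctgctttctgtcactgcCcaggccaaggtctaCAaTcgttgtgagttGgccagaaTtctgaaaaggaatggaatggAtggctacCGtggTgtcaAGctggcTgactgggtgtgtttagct
Lyz2: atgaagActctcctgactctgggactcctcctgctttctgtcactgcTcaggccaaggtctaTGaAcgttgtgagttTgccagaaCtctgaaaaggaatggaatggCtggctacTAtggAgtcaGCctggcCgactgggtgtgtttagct
Of the 1189 stretches of 75 bases in the Lyz1 transcript, 74 (6.22%) also occurred in the Lyz2 transcript, and the longest run common to both was 118 bases. A read from such a stretch cannot be placed by its sequence, and in the expected counts it was divided between the genes. The posterior SD of that division, as deposited, was 1.28 to 3.0 reads in the 12 libraries for Lyz1 and Lyz2, and 0 for each of the other 8 members. The stretches were counted in GENCODE M21 transcripts of 1263 bases (Lyz1) and 1316 bases (Lyz2), whereas the deposited lengths were 1264 and 1266. The transcript models behind the deposited counts may therefore differ from these.

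The promoter regions of the lysozyme genes and of the 3 granule genes that were lower in untreated KO cells are shown from RefSeq (GRCm38.p6), up to the first annotated start of each gene. Capitals mark matches to GAGGAA, the core that PU.1 binds, and to TTGCNNAA, a form of the C/EBP element, on either strand, and no 2 of these matches overlapped.
Lyz1, chr10:117292869-117293118, minus strand: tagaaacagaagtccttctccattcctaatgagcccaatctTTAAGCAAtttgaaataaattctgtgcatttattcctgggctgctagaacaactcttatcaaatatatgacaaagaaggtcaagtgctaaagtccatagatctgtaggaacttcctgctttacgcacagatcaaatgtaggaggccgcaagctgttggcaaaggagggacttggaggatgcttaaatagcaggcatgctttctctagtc
Lyz2, chr10:117282322-117282522, minus strand: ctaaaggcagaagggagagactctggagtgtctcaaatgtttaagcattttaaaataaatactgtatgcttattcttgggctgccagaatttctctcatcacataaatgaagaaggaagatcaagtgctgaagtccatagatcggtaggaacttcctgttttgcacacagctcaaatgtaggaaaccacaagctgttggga
Ltf, chr9:111019042-111019270, plus strand: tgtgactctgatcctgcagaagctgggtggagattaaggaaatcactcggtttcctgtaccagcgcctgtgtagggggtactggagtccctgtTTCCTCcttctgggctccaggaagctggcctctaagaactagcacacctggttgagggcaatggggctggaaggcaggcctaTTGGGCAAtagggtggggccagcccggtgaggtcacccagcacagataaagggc
Ngp, chr9:110419558-110419746, plus strand: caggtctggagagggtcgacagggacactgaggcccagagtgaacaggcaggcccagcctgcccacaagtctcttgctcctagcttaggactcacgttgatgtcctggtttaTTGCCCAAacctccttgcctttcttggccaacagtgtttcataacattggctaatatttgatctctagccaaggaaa
S100a9, chr3:90695722-90695971, minus strand: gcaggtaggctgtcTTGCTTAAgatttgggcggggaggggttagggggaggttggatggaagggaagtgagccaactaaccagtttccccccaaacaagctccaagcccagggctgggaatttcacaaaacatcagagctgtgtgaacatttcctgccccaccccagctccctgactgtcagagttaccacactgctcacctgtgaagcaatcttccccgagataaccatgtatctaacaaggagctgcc
All 10 members had an entry in the promoter table. Within the 250 bases before the RefSeq start, TTGCNNAA was found for 5 members (Lyz1, Ltf, Ngp, Lcn2 and S100a9), beside 9.56% of 32851 promoters of that length. GAGGAA was found for 5 members (Ltf, Lcn2, S100a8, Mpo and Elane), beside 23.3% of all promoters. The letters TATAAA were found for S100a8 alone, beside 12.4%. A match describes these letters and is not a binding site.

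Totals per library were 20011792 to 39632770 expected counts, lowest in WT M2. All 8 macrophage markers examined, among them Adgre1, Csf1r and Mertk, were expressed, with summed values of 3263 to 4311 TPM, an abundance scaled by transcript length. Of 9 neutrophil markers, Ly6g was at 0 counts in all 12 libraries, where 3 counts would be 0.0757 to 0.150 CPM, and Retnlg, Cxcr2, Ms4a3, Wfdc21 and Asprv1 did not exceed 0.45 TPM. Csf3r, Padi4 and Ifitm6 made up nearly all of the summed 35.9 to 61.0 TPM. Igf2bp2 itself gave 42.07 to 70.11 TPM in WT M0 and 48.45 to 56.05 TPM in KO M0 (log2 fold change -0.11, edgeR adjusted p = 0.656). In M2 it gave 95.9 to 126.83 TPM in WT and 71.29 to 75.38 TPM in KO (-0.65, edgeR adjusted p = 0.0285), a call lost under 6 of 17 alternatives. Counts of the whole gene include the exons that remain, so these values do not check the labels.

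Lyz2 was among the most abundant transcripts of untreated WT macrophages, and of the 7 members tested it fell the most in KO. Its values in WT M0 were 7030, 7815 and 10544 CPM, which are counts relative to the library total, scaled with TMM factors, and in KO M0 they were 22.1, 33.2 and 25.0 CPM. The groups were far apart, and no KO library came near a WT library. The fold change was 315 (log2 fold change -8.30, SE 0.23, edgeR adjusted p = 7.73e-10). In M2, Lyz2 measured 4185, 4585 and 5293 CPM in the WT mice against 11, 14.7 and 11.2 CPM in the KO mice, with WT 379-fold higher (log2 fold change -8.57, SE 0.23, edgeR adjusted p = 6.84e-10). Among all genes by TPM, Lyz2 held rank 3 in each WT M0 library, ranks 9, 6 and 4 in WT M2, 3379 to 4573 in KO M0 and 5876 to 6662 in KO M2. It made up 1.105%, 1.207% and 1.54% of all TPM in WT M0 and 0.6126%, 0.6671% and 0.7725% in WT M2. As Cre was placed in this gene, the loss of Lyz2 cannot be told apart from the insertion, and it separates the libraries as the genotype labels do. Within WT, mouse 1 was lowest and mouse 3 highest in both treatments, and any part of Cre in these differences was not tested.

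Lyz1 stayed a minor transcript in all groups. It gave 1.78, 2.40 and 3.27 CPM in WT M0 and 5.80, 3.13 and 4.78 CPM in KO M0. The means were higher in KO, but the second KO library lay below the third WT library, and the difference did not pass the test (log2 fold change 0.88, SE 0.34, edgeR adjusted p = 0.128, under 0.05 only before adjustment). After IL-4 the WT libraries gave 1.59, 1.86 and 1.74 CPM and the KO libraries 4.97, 1.71 and 3.31 CPM, again with overlap (log2 fold change 0.93, SE 0.37, edgeR adjusted p = 0.191, likewise). Expected counts of Lyz1 were 0.0252% to 0.0402% of those of Lyz2 in the WT libraries, and 9.38% to 45.3% in the KO libraries. The expected counts of Lyz1 were 34.17 to 84.27 in WT and 65.68 to 172.98 in KO, far below the 88960 or more counts of Lyz2 in each WT library. How many of the few Lyz1 reads in WT were wrongly assigned Lyz2 reads was not tested. Of the other lysozyme family genes, 7 of the 10 listed had no count in any library, and Lyzl4, a lysozyme-like gene, was the remaining one with expression, at 6.92 to 8.18 TPM in WT M0 and 8.74 to 9.53 TPM in KO M0 (log2 fold change 0.31, SE 0.12, edgeR adjusted p = 0.137). With IL-4, Lyzl4 rose in WT (0.95, edgeR adjusted p = 3.74e-05) and in KO (1.01, edgeR adjusted p = 1.06e-05), whereas Lyz2 fell.

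**Figure D1:**
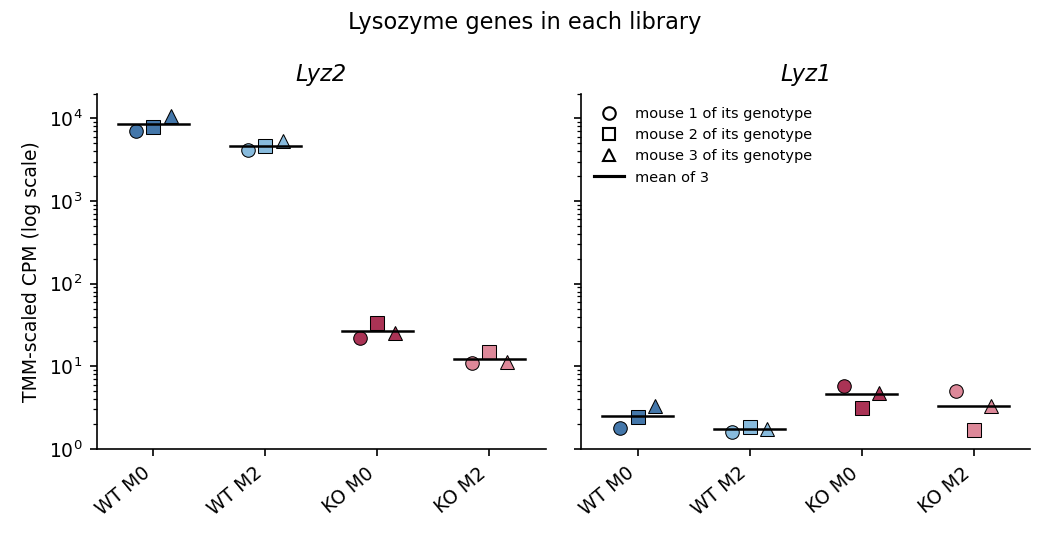
TMM-scaled CPM of Lyz2 (left) and Lyz1 (right) in each of the 12 libraries on a log axis, with the symbol giving the mouse of its genotype and the line the mean of 3. Lyz2 lies between 4185 and 10544 CPM in WT and between 11 and 33.2 CPM in KO, whereas Lyz1 lies between 1.59 and 5.80 CPM in all groups.

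The position of Lyz2 was then examined for its neighbours, since the inserted Cre sits in this part of chromosome 10. The Cre allele, any flanking segment inherited with it and the deletion in Igf2bp2 go together in the KO mice, so that for genes near Lyz2, Lyz1 included, their parts cannot be told apart. Of 62 annotated genes that start within 1 Mb of the start of Lyz2, 13 were in the fit. In M0, 2 of them were higher in KO, beside 5.50% of all genes, and 0 lower, beside 4.27%. These were Cpsf6, a subunit of the mRNA cleavage factor, whose start is 97.7 kb upstream (log2 fold change 0.21, SE 0.05, edgeR adjusted p = 0.0200), and Mdm1, a microtubule-binding protein of the centriole, at 859.5 kb (0.51, SE 0.12, edgeR adjusted p = 0.0199). In M2 the count was 0 in either direction, beside 1.21% higher and 1.46% lower. Yeats4, whose start lies on the other side at -57.8 kb, had log2 fold changes of 0.02 (SE 0.09) in M0 and 0.11 (SE 0.09) in M2. The fitted neighbours ranged from -0.06 to 0.88 in M0 and from -0.25 to 0.93 in M2, with Lyz1 as the highest in both. The calls of Cpsf6 and Mdm1 were each lost under 4 of 17 alternative settings.

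**Figure D2:**
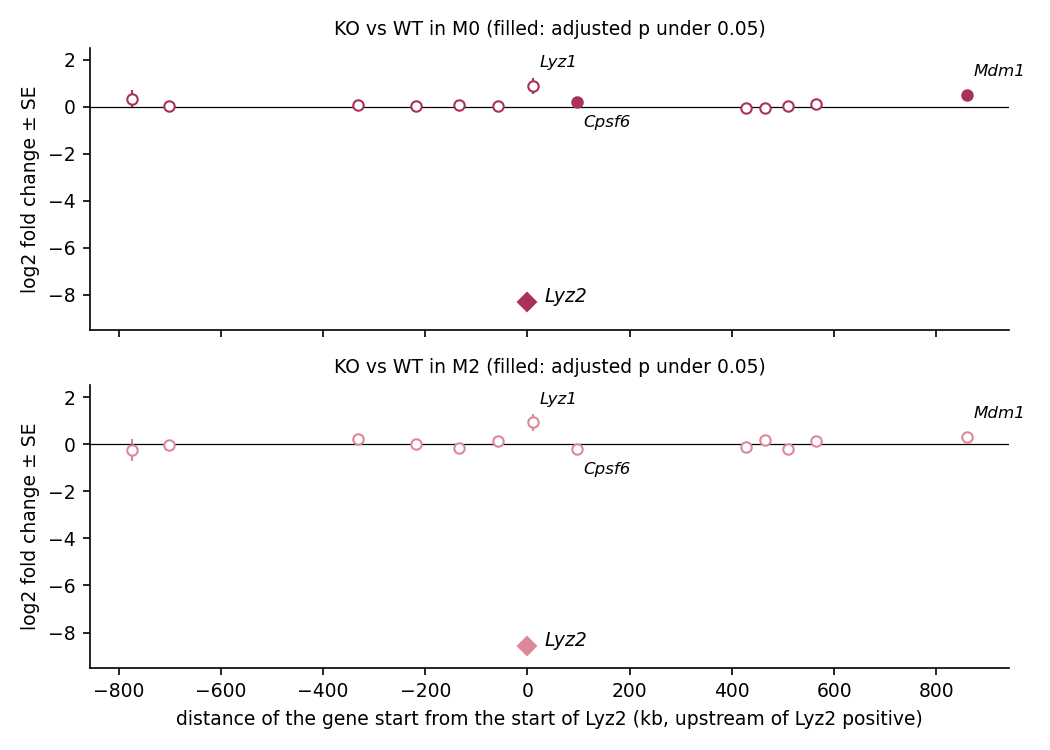
Log2 fold change between KO and WT (± SE, n = 3 mice per group) of Lyz2 (diamond) and of the 13 fitted genes that start within 1 Mb of it, against the distance of their starts from that of Lyz2 in kb, upstream positive. Lyz2 sits at -8.30 in M0 and -8.57 in M2, while its neighbours stay between -0.25 and 0.93.

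The granule genes were present at low levels, and their order by TPM in WT M0 ran from the calprotectin genes to those of the azurophil granules. S100a9 gave 10.65 to 24.56 TPM and S100a8 7.16 to 20.14 TPM, and the ranges of these partners overlapped. Ngp gave 3.98 to 11.54 TPM, Ltf 1.7 to 5.3 TPM and Lcn2 1.66 to 4.71 TPM, each with an overlap with its neighbour in the order. Camp gave 0.13 to 1.16 TPM. The genes of the azurophil granules were close to absent. Mpo, the myeloperoxidase that makes hypochlorous acid, had 0 to 4 counts in any library, and Elane, neutrophil elastase, had 0 to 2. Camp, the precursor of the antimicrobial peptide CRAMP, had 9, 10 and 1 counts in WT M0, 5, 3 and 2 in WT M2, 4, 11 and 5 in KO M0 and 2, 3 and 1 in KO M2. Camp, Mpo and Elane did not pass the filter on low counts, so that 7 of the 10 members were tested. Without the filter all 10 were tested among 20576 genes, and Camp, Mpo and Elane were not called in any comparison (edgeR adjusted p = 0.0992 to 1.00).

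In untreated macrophages, 4 of the 7 tested members were lower in KO, namely Lyz2, Ltf, Ngp and S100a9, beside 4.27% of all 12846 genes, and 0 were higher, beside 5.50%. Since 1 of the 4 is the gene with the insertion, 3 granule genes remain. The median log2 fold change of the 7 was -1.38, beside -0.001 for all genes. The members were selected by name with earlier results known, and these counts describe them without a test of the group.

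Ltf encodes lactoferrin, which withholds iron from bacteria. It gave 6.21, 7.72 and 2.61 CPM in WT M0 and 1.58, 1.22 and 1.13 CPM in KO M0. All KO libraries lay below all WT libraries, and the third WT mouse lay nearer to KO than to the other WT mice. Ltf was 4.25-fold lower in KO (log2 fold change -2.09, SE 0.40, edgeR adjusted p = 0.00759), a call that was kept without any single library. Ngp, a neutrophil granule protein of the cathelicidin and cystatin-like family, gave 5.89, 7.16 and 2.61 CPM in WT M0 and 1.43, 1.51 and 1.49 CPM in KO M0. The KO values were nearly equal and below every WT value, and the fold change was 3.53 (log2 fold change -1.82, SE 0.42, edgeR adjusted p = 0.0180). The call of Ngp was lost without WT M0 mouse 2 (edgeR adjusted p = 0.0902) and without KO M0 mouse 1, 2 or 3 (0.0611, 0.0706 and 0.0702). Its log2 fold change in these 4 fits was -1.52 to -1.84, and the calls over all genes were 461 to 745, beside 1256 in the full fit. In bulk libraries such a difference may reflect fewer cells of a type or less RNA per cell, and these cannot be told apart.

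S100a9 and S100a8 encode the subunits of calprotectin, which binds zinc and calcium. S100a9 gave 4.53, 5.75 and 2.65 CPM in WT M0 and 2.13, 1.30 and 1.60 CPM in KO M0, without overlap, and was 2.60-fold lower in KO (log2 fold change -1.38, SE 0.29, edgeR adjusted p = 0.0124). The call of S100a9 was lost without WT M0 mouse 2 (edgeR adjusted p = 0.0696) and without KO M0 mouse 2 or 3 (0.0659 and 0.0554). Its log2 fold change in these fits was -1.11 to -1.35, and the calls over all genes were 461 to 563, beside 1256 in the full fit. S100a8 reached 3.33, 3.12 and 1.29 CPM in WT M0 against 0.845, 1.70 and 1.44 CPM in KO M0. Here the third WT library fell within the range of KO, and the difference did not pass (log2 fold change -0.95, SE 0.42, edgeR adjusted p = 0.178). Lcn2, the siderophore-binding lipocalin, behaved alike, with 1.84, 2.14 and 0.818 CPM in WT M0 and 0.661, 0.902 and 0.968 CPM in KO M0 (log2 fold change -0.92, SE 0.35, edgeR adjusted p = 0.119). Its overlap again came from the third WT mouse.

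After 8 h of IL-4, Lyz2 was the only member called between the genotypes, 1 of 7 lower beside 1.46% of all genes, and 0 higher beside 1.21%. Ltf gave 4.86, 3.87 and 1.64 CPM in WT M2 and 1.51, 1.97 and 1.72 CPM in KO M2 (log2 fold change -0.99, SE 0.40, edgeR adjusted p = 0.196). Ngp gave 3.09, 2.68 and 0.665 CPM in WT M2, and its KO values of 1.17, 1.19 and 0.942 CPM lay between those of the third and the other WT mice (log2 fold change -0.97, SE 0.46, edgeR adjusted p = 0.261). S100a9 gave 3.36, 2.58 and 1.74 CPM in WT M2 and 1.54, 1.40 and 1.72 CPM in KO M2, so that the lowest WT value lay just above the highest KO value (log2 fold change -0.72, edgeR adjusted p = 0.217). S100a8 and Lcn2 had log2 fold changes of -0.51 and -0.43 and overlapped. The median of the 7 members was -0.72, beside -0.001 for all genes.

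The third WT mouse carried much of this spread. All 5 granule genes among the fitted members (Ltf, Ngp, Lcn2, S100a8 and S100a9) were lowest in WT mouse 3, in M0 as in M2. The highest WT library exceeded the lowest by 2.17 to 2.96 times in M0 and by 1.93 to 4.65 times in M2, whereas the KO libraries differed by 1.06 to 2.01 times in M0 and by 1.23 to 1.95 times in M2, with no mouse lowest for all genes. These 5 genes thus varied together among mice of 1 genotype. The other specific granule genes in the fit, Mmp8 and Hp, did not share the pattern, as both were lowest in WT mouse 1, in M0 as in M2. When both libraries of WT mouse 3 were left out, an alternative chosen after this was seen and one that removes the lowest WT values, 6 members were called lower in M0, with Lcn2 and S100a8 added, and 4 in M2, with Ltf, Ngp and S100a9 added. Over all genes this alternative called 1733 of 13012 in M0, where the full fit called 1256 of 12846, and 1098 in M2, where the full fit called 344. Lyz2 did not share the pattern, since WT mouse 3 held its highest values.

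**Figure D3:**
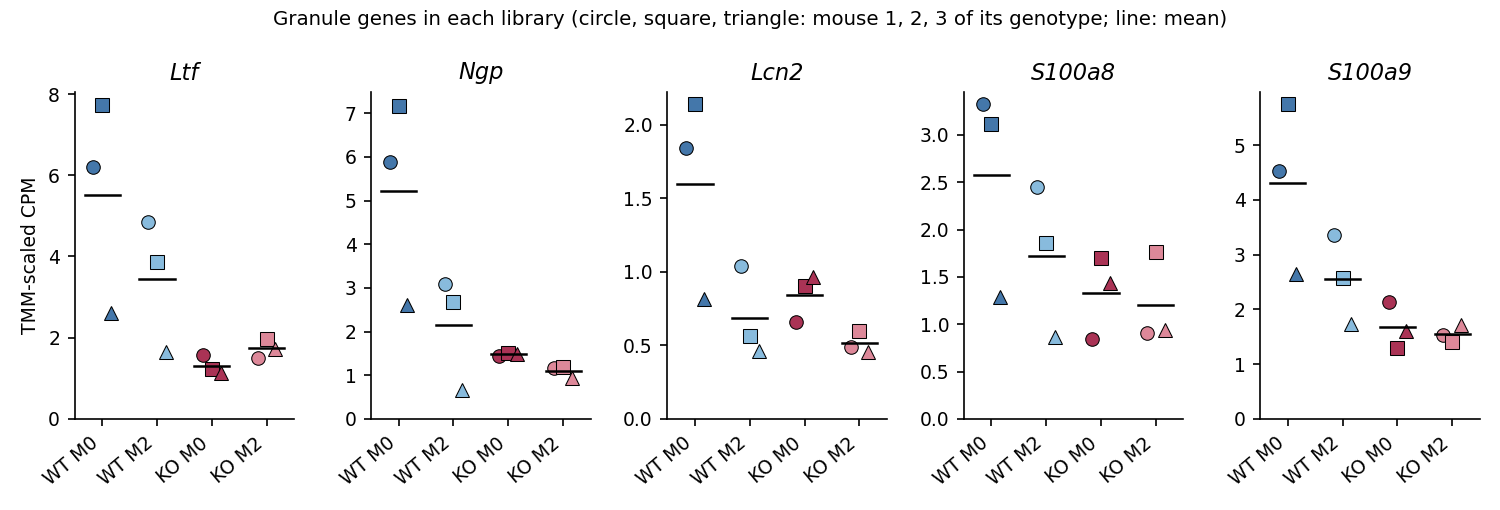
TMM-scaled CPM of Ltf, Ngp, Lcn2, S100a8 and S100a9 in each library, on linear axes that differ between panels, with circles, squares and triangles for mice 1, 2 and 3 of a genotype and lines for the mean of 3. In WT M0 and WT M2 the triangle is the lowest of its group in every panel, and in WT M0 it lies between 0.818 and 2.65 CPM.

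Over the 12 libraries the pairwise correlations of log2 CPM among the 5 granule genes were 0.69 to 0.94 (Pearson, 10 pairs). After the mean of each group was taken off, they were 0.48 to 0.93, highest for Ltf with Ngp. Correlations of these genes with Lyz1 or Lyz2 were -0.83 to 0.03 on the same deviations. The libraries share depth and mice, and WT mouse 3, lowest for these 5 genes and highest for Lyz2, enters with both its libraries. The values are given as a description. Among all fitted genes, the profile most like that of S100a9 was that of Ltf (r = 0.942 over 12 libraries), and S100a9 was second for Ltf after Polr1b (0.955). For Ngp the closest were Pvr (0.956), Zscan21 (0.922) and the interleukin gene Il1b (0.921), for Lcn2 Kansl2 (0.934), Pctp (0.932) and Hus1 (0.926), and for S100a8 Gm49359 (0.979), Zfp251 (0.920) and Dapk1 (0.912). After S100a9 the closest to Ltf was Frs3 (0.933), and after Ltf the closest to S100a9 were Kbtbd8 (0.929) and Gm13331 (0.916). Lyz1 was most like Cstb (0.877), Akr1a1 (0.867) and Wbp2 (0.863). Lyz2 was most like Gm25745 (0.992, mean 0.594 CPM), a short annotation within Hsp90b1 whose reads may be divided with that gene, and then like Ide (0.978) and Rbm45 (0.973). Because Lyz2 splits the 12 libraries by genotype, genes that differ between WT and KO rank high here for that reason. Over the 6 WT libraries alone the closest to Lyz2 were Ifitm2 (0.998), Ap1s1 (0.998) and Spp1 (0.997).

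**Figure D4:**
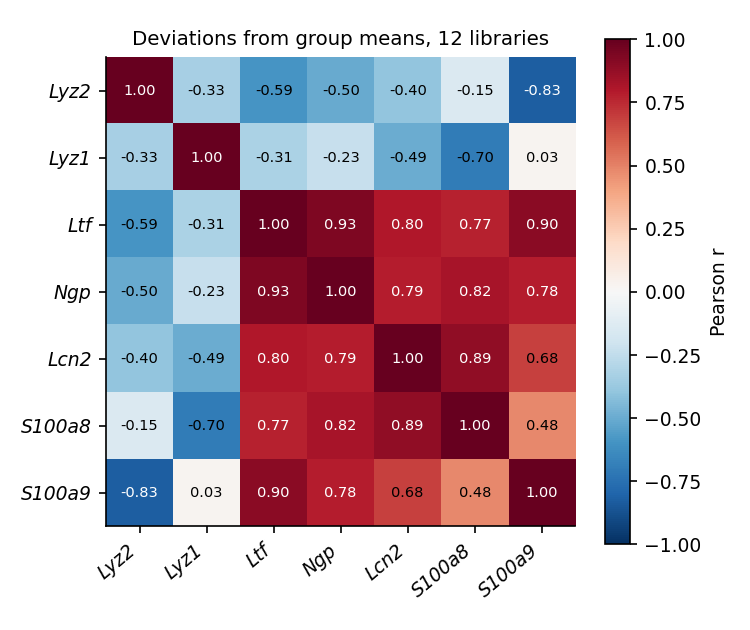
Pearson correlations between the 7 fitted members, from log2 CPM after the mean of each group was taken off, over 12 libraries. The 5 granule genes form a block of 0.48 to 0.93, and their values with Lyz1 and Lyz2 range from -0.83 to 0.03. Each mouse enters with an M0 and an M2 library.

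IL-4 lowered Lyz2 in both genotypes. In WT, 4 of the 7 members fell with IL-4, namely Lyz2, Ngp, Lcn2 and S100a9, beside 25.1% of all genes, and 0 rose, beside 24.9%. In KO, 1 of the 7 fell, Lyz2, beside 26.0%, and 0 rose, beside 26.8%. These comparisons use the same M0 libraries as those between the genotypes. The 2 libraries of a mouse varied together (correlation of their deviations 0.103 to 0.364 in 6 mice), so that values with the mouse as a block are given where a call changed.

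From M0 to M2, Lyz2 fell 1.81-fold in WT (log2 fold change -0.85, SE 0.17, edgeR adjusted p = 0.000881) and 2.17-fold in KO (log2 fold change -1.12, SE 0.19, edgeR adjusted p = 0.000275). The M2 values were below every M0 value of the same genotype, and the responses differed by -0.27 (SE 0.25, edgeR adjusted p = 0.630). Ngp fell 2.43-fold in WT (log2 fold change -1.28, SE 0.42, edgeR adjusted p = 0.0230) although the groups overlapped, as M0 of mouse 3 lay below M2 of the other mice. Lcn2 fell 2.30-fold (-1.20, SE 0.38, edgeR adjusted p = 0.0184) and S100a9 1.68-fold (-0.75, SE 0.29, edgeR adjusted p = 0.0485), each with an overlap that came from the low M0 value of mouse 3. Within each of the 3 WT mice, these 3 genes and Ltf and S100a8 were lower in M2 than in M0. With the mouse as a block, 6 of the 7 were called in WT, with Ltf (log2 fold change -0.67, edgeR adjusted p = 0.00962) and S100a8 (-0.58, edgeR adjusted p = 0.0306) added, beside 7016 of all 12846 genes called in either direction. The count in WT was 1, Lyz2, without M0 mouse 1, without M0 mouse 2 or without M2 mouse 3, and 2 without M2 mouse 2. Over all genes these 4 fits called 5606 to 6131, beside 6428 in the full fit.

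In KO cells none of the 5 granule genes among the fitted members was called with IL-4. Ltf had 1.58, 1.22 and 1.13 CPM in KO M0 and 1.51, 1.97 and 1.72 CPM in KO M2 (log2 fold change 0.42, SE 0.42, edgeR adjusted p = 0.432). Ngp and Lcn2 were lower in each KO M2 library than in any KO M0 library, but neither passed (-0.43, edgeR adjusted p = 0.458, and -0.72, edgeR adjusted p = 0.135). With only the 6 libraries compared, Lcn2 was called (-0.72, edgeR adjusted p = 0.0356). S100a8 and S100a9 had -0.14 and -0.10. Lyz1 had -0.52 in WT and -0.47 in KO, and in KO it was called with the mouse as a block (-0.52, edgeR adjusted p = 0.0189) or without M2 mouse 1 (-0.86, edgeR adjusted p = 0.0469). When the IL-4 response of KO was set against that of WT, 0 of the 7 members were called, beside 1.11% of genes higher and 2.13% lower. None of the 7 had an unadjusted p under 0.05, and DESeq2 called 0 of them as well. The values of Ltf (1.10, SE 0.57, edgeR adjusted p = 0.341), Ngp (0.85, SE 0.62, edgeR adjusted p = 0.522) and S100a9 (0.66, edgeR adjusted p = 0.458) were positive, and 1 member, Ltf, was called with the mouse as a block (1.10, edgeR adjusted p = 0.0389), beside 1003 of the 12846 genes.

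**Figure D5:**
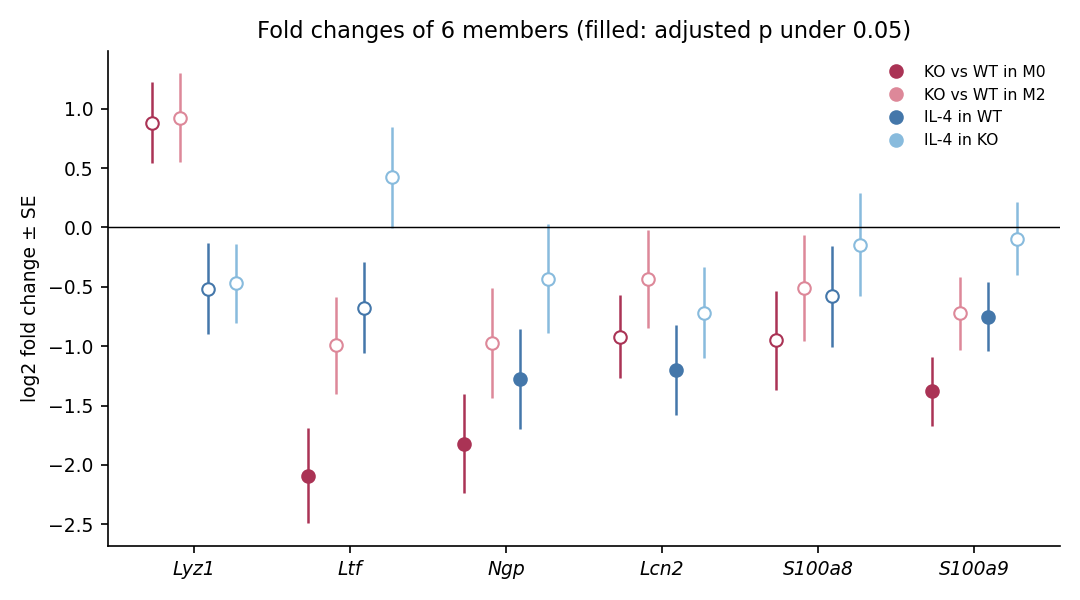
Log2 fold changes with their SE for 6 fitted members in 4 comparisons (n = 3 mice per group), with filled symbols where the edgeR adjusted p was under 0.05. Between the genotypes in M0, Ltf, Ngp and S100a9 lie at -2.09, -1.82 and -1.38, Lyz1 lies above 0, and Lyz2, at -8.30, is left out for scale.

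The other granule genes gave calls in either direction or none. Of 10 specific granule genes 5 were tested, and beside Ltf and Ngp 1 gene was called in M0, Mmp8, the neutrophil collagenase, which was higher in KO, with 13.39, 18.98 and 18.13 TPM in WT M0 and 35.0, 26.29 and 33.38 TPM in KO M0 (log2 fold change 0.91, SE 0.15, edgeR adjusted p = 0.00308). It was also higher in KO M2 (0.75, SE 0.15, edgeR adjusted p = 0.0274), a call lost under 8 of 17 alternatives. Hp, haptoglobin, fell with IL-4 in WT and KO (-1.07 and -0.98, edgeR adjusted p = 0.0326 and 0.0232), calls lost under 5 of 17 and 2 of 16 alternatives. None of the 6 azurophil granule genes was tested, and their summed level was 0.24 to 0.66 TPM in WT M0 and 0.74 to 1.05 TPM in KO M0. None of the 6 neutrophil stefins, cysteine protease inhibitors, was tested either, and 2 of them were not found. Of the later granules and vesicles, the formyl peptide receptors Fpr1 and Fpr2 fell with IL-4 by log2 values of -4.55 and -3.04 in WT and -5.51 and -3.66 in KO, and the gelatinase Mmp9 rose in WT (0.51, edgeR adjusted p = 0.0239), a call lost under 6 of 17 alternatives. None of the 3 genes tested in this list was called between the genotypes.

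Among 12 S100 family genes 8 were tested, and S100a9 was the only one called between the genotypes, with a median log2 fold change of 0.025 over the 8 in M0. S100a10 fell with IL-4 in WT and KO (-0.47 and -0.40), and S100a11 in WT (-0.28), a call lost under 2 of 17 alternatives. In KO S100a11 had -0.20 (edgeR adjusted p = 0.0525, or 0.0191 with the mouse as a block). Among genes for regulators of granule genes 8 of 9 were tested. Cebpb, a C/EBP factor of emergency granulopoiesis and of macrophages, was lower in KO M0 (163.77, 180.18 and 217.27 TPM in WT and 143.43, 137.42 and 120.84 TPM in KO, log2 fold change -0.48, SE 0.11, edgeR adjusted p = 0.0180), a call lost under 3 of 17 alternatives. The others, with Cebpa, Cebpd and Spi1, the gene of PU.1, were not called between the genotypes in M0, and 0 of the 8 were called in M2. IL-4 lowered Nfkbiz, a co-activator that Lcn2 transcription needs in inflamed cells, by log2 values of -3.47 in WT and -3.20 in KO, and it raised Cebpd (0.75 and 1.25), where 4 of 17 alternatives lost the call in WT.

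Of 10 genes for receptors and inhibitors of the granule proteins 8 were tested. Slpi, the secretory inhibitor of neutrophil elastase, was higher in KO, with 4.93, 3.11 and 2.63 TPM in WT M0 and 7.52, 7.96 and 11.47 TPM in KO M0 (log2 fold change 1.35, SE 0.26, edgeR adjusted p = 0.00704), and in M2 (1.14, SE 0.27, edgeR adjusted p = 0.0487), where 12 of 17 alternatives lost the call. Tlr4, a receptor for calprotectin and for lipopolysaccharide, was higher in KO M0 (0.59, SE 0.06, edgeR adjusted p = 0.000284). IL-4 raised Cst7, the gene of cystatin F, in WT and KO (2.65 and 2.56). Of the 4 neutrophil markers tested, Padi4, which citrullinates histones, was higher in KO in M0 and M2 (0.63 and 0.77, edgeR adjusted p = 0.00952 and 0.0179), the latter lost under 3 of 17 alternatives. With IL-4, 2 of these 4 rose and 2 fell in each genotype. Csf3r, the G-CSF receptor (2.16 in WT and 2.24 in KO), and Cxcr2, a chemokine receptor (3.04 and 2.14), rose, whereas Ifitm6 (-1.88 and -1.82) and Padi4 (-0.58 and -0.44) fell, and 1 of 16 alternatives lost the call of Padi4 in KO.

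Levels of other cell types were set beside the lower granule genes of KO. The summed neutrophil markers, nearly all from Csf3r, Padi4 and Ifitm6, were 44.2 to 61.0 TPM in WT M0 and 49.0 to 53.8 TPM in KO M0. Ly6g was at 0, and Padi4 was called higher in KO. Progenitor markers were 3.85 to 5.16 and 3.72 to 4.63 TPM, monocyte markers 9.93 to 17.3 and 17.1 to 18.9 TPM, and macrophage markers 3263 to 3895 and 3508 to 3620 TPM. Of the 3 progenitor markers tested in M0, 0 were called. Kit (log2 fold change -1.18, edgeR adjusted p = 0.0758) and Sox4 (-0.27) were lower in KO, and Cd34 (0.43) was higher. Only for Kit did the groups not overlap. Of the 8 macrophage markers, Itgam was higher in KO M0 (log2 fold change 0.45, edgeR adjusted p = 0.00396) and C1qa lower (-0.38, edgeR adjusted p = 0.00685). Markers of stromal cells summed to 11.2 to 21.1 TPM in WT M0 and 3.22 to 13 TPM in KO M0, and 12.7 to 22.4 TPM in WT M2 and 3.27 to 11.1 TPM in KO M2, where the groups did not overlap. All 4 had log2 fold changes below 0 in both states (median -0.93 in M0 and -1.20 in M2), and 0 of the 4 were called. In WT M0 none of the 4 was lowest in mouse 3, unlike Ltf, Ngp and S100a9. Col1a1 gave 11.04, 5.2 and 5.73 TPM there and Cxcl12 0.6, 0.73 and 1.42 TPM. In WT M2 Col1a1 alone was lowest in mouse 3. Basophil and mast cell, eosinophil, B and T cell and erythroid markers did not exceed 0.36 TPM in sum in any library. The part of these cells in the differences of Ltf, Ngp and S100a9 was not tested.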

How the data were processed

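Per the labels, poly(A) RNA was sequenced from 12 libraries in single reads of 75 nt with a strand-specific kit. The authors used FastQC 0.11.2 and the Grape-nf pipeline on GRCm38/mm10, and the counting tool is not given in the sources used here. They deposited per gene expected counts, which need not be whole, TPM as a maximum-likelihood value and as a posterior mean, posterior SDs of the counts, and lengths. Their DESeq2 1.40.2 tables (fold changes and p-values) were used only to pair gene IDs with symbols, and symbols were found for 37570 of 38887 genes, 16570 of them from a reference table.

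Expected counts were rounded and fitted with edgeR 4.0.16 in R 4.3.3 (filterByExpr, TMM, 1 coefficient per group over 12 libraries, quasi-likelihood F test), which left 12846 genes. Each p was adjusted over all of them by the Benjamini-Hochberg method, with calls at an adjusted p under 0.05. CPM carry TMM factors. Alternatives were DESeq2 1.42.0, RLE factors, no filter and a mean of at least 1 CPM, limma 3.58.1 on log2 TPM with 1 or 0.1 added, a replicate block, only the libraries compared, Lyz2 left out of the totals, thinning to the smallest library, leaving out each library and, for levels only, posterior mean TPM. The exact permutation test of 1 gene cannot give a p below 0.1 here. The code was tested on simulated counts. P-values of the main fit rest on a spread within groups that was estimated over all 12 libraries and shared by the 4 groups. That fit treated the 2 libraries of a mouse as independent. Floors cover counting error only.

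M0 and M2 libraries of 1 genotype share the number of a mouse in their labels, with correlated deviations (0.103 to 0.364). A WT and a KO library that share a number did not vary together (-0.068 to 0.040).

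The 10 members, the gene lists (113 of 115 genes found) and the motifs were chosen with earlier results of these data known. Named genes are all members, from each list at most 3 called genes per comparison with the largest changes, the 3 genes most like each member, and called neighbours of Lyz2. Yeats4 was chosen after its values were seen, as were non-called examples of the lists.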

Additional observations from a re-analysis of the deposited data

Results flagged for a closer look

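Among the genes named from the lists and among the neighbours of Lyz2, 3 had IL-4 responses that differed between the genotypes by a test of the difference itself in edgeR, in the fit without a block. For Cebpb the response in KO exceeded that in WT by 0.82 on the log2 scale (SE 0.16, edgeR adjusted p = 0.0151), as it fell in WT (-0.63) and had 0.20 in KO (edgeR adjusted p = 0.149, or 0.0190 with the mouse as a block), and 21 of 22 alternatives kept the call. For Tlr4 the difference was -0.74 (SE 0.09, edgeR adjusted p = 0.00257), with a rise of 1.21 in WT and of 0.46 in KO, and 22 of 22 alternatives kept it. For Cpsf6, which starts 97.7 kb from Lyz2, the difference was -0.39 (SE 0.07, edgeR adjusted p = 0.0107), with 0.16 in WT, a call lost under 5 of 17 alternatives, and a fall of -0.23 in KO, called under 16 of 16, and 20 of 22 alternatives kept the difference. Among the 10 members, Ltf met the threshold with the mouse as a block (1.10, edgeR adjusted p = 0.0389) and not without it (1.10, edgeR adjusted p = 0.341). With that block the differences of Mmp9 (-0.59, edgeR adjusted p = 0.0141), Spi1 (0.26, edgeR adjusted p = 0.0416), Itgam (-0.38, edgeR adjusted p = 0.0142) and Igf2bp2 (-0.55, edgeR adjusted p = 0.00749) passed as well. With 3 libraries per group, single libraries were not tested as outliers.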

How the results depend on the processing

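Lyz2 between the genotypes and with IL-4, and Ltf in M0, kept their calls under every alternative that gave a test. The number of members called in M0 (4) was 2 to 5 when 1 library was left out, beside 461 to 1461 calls over all genes (1256). In M2 (1) it was 4 without both libraries of WT mouse 3. For IL-4 in WT (4) it was 1 with only the 6 libraries compared, beside 5601 of 12349 genes, and 1 to 5 without 1 library, beside 5606 to 6182 genes. It was 3 with either limma setting, with a mean of at least 1 CPM and with Lyz2 left out of the totals. Over all genes these called 5689 to 6447, beside 6428 in the full fit. For IL-4 in KO (1) it was 2 with the mouse as a replicate block, beside 7472 of 12846 genes, and 2 with only the libraries compared, beside 7075 of 12763. Without 1 library it was 1 to 2, beside 6034 to 6367 genes, where the full fit called 6784. For the difference between the responses (0) it was 1 with the replicate block. The block of library numbers, which did not pair the genotypes, changed no call of a member between them. Over all genes, the block gave 1003 in place of 416 calls for the difference between the responses. Limma lost the call of Ngp in M0 (adjusted p = 0.0538 and 0.0756) and of S100a9 with IL-4 in WT (0.0515 and 0.0540). Values near 0 changed sign: the difference of Lyz1 was -0.087 and -0.070 with limma, -0.026 with the replicate block, -0.197 without WT mouse 3 and -0.344 to 0.370 without 1 library. Without 1 library, Lcn2 in M2 was -0.652 to 0.008, and with IL-4 in KO S100a8 was -0.536 to 0.072 and S100a9 -0.253 to 0.096. The cause was not tested. Mmp8 and Slpi in M2 lost their calls under 8 and 12 of 17 alternatives. Counts of Camp, Mpo and Elane limit what can be said of them, and posterior mean TPM put Mpo at 0.43 to 0.667 in the group means, above its maximum-likelihood values of 0.0167 to 0.183.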
